A study of Homo sapiens with 6 samples.

Results

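The genes described here are the translation initiation and elongation factors of human cells, taken as every protein-coding gene whose symbol begins with EIF or EEF followed by a digit. The rule found 71 of the 58395 genes in the deposited tables, and 162 further genes with such symbols were left out because they are not protein-coding. RNA-seq was made from HCT116 cells, an established colon carcinoma line, as 6 biological replicates, of which 3 carried a hairpin without a target (shControl) and the other 3 an STBD1 hairpin (shSTBD1). STBD1 encodes a glycogen-binding protein that has been proposed as an adaptor for the autophagy of glycogen, and the libraries were made to see how transcripts differ when it is depleted. Cells of both groups were grown in DMEM with fetal bovine serum, and by the methods of the study they received their hairpin from a lentivirus and were selected with a drug, puromycin or G418. The methods describe infected populations and do not say that a clone was used for these libraries, only a single hairpin stands for the depletion, and both groups express a hairpin.

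Protein synthesis on most mRNAs begins when EIF2, bound to GTP and the initiator tRNA, joins the small ribosomal subunit together with EIF1, EIF1A, EIF5 and the large EIF3 complex. This assembly is brought to the capped mRNA by EIF4E, the scaffold EIF4G and the helicase EIF4A, scans to the start codon and is joined by the large subunit with the help of EIF5B. EEF1A then delivers each aminoacyl-tRNA and EEF2 moves the ribosome along. The cell slows these steps by phosphorylation of the alpha subunit of EIF2, by proteins that occupy EIF4E and by the kinase of EEF2.

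The libraries held between 17689097 and 21668274 expected counts, which are RSEM's estimates of the reads from each gene. STBD1 itself was at 16.2, 15.7 and 14.4 CPM (counts scaled to library size and by TMM) in shControl and at 11.6, 9.06 and 9.18 CPM in shSTBD1, a log2 fold change of -0.64 (SE 0.098, adjusted p = 2.9e-04 in the quasi-likelihood test of edgeR, adjusted by Benjamini-Hochberg). It was not called by limma on log2(TPM + 1) (adjusted p = 0.065) or on log2(TPM + 0.1) (0.067, the highest of the alternatives). All 5 epithelial markers were present, with a summed level of 2851 to 2885 TPM (abundance per transcript length, of a fixed total) in shControl and 3236 to 3372 TPM in shSTBD1. Of 6 colon markers 3 reached 1 TPM, and CDX1 was at 0. Of 6 immune markers only CD68 reached 1 TPM, the sum ran from 7.54 to 8.58 TPM in shControl and from 11.3 to 12.9 TPM in shSTBD1, and PTPRC and CD3E were at 0. The sums of 6 fibroblast markers overlapped (15 to 20.1 against 17.2 to 20.8 TPM), and no endothelial marker of 4 reached 1 TPM. The part of the marker differences in the results below was not tested. In bulk RNA, a change in the number of cells of a kind and a change in the RNA of each cell cannot be told apart.

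Of the 71 factors, 66 held enough counts to be tested. The untested 5 were EIF4E1B, EIF2S3B, EIF1AY and the read-through genes EEF1E1-BLOC1S5 and EEF1AKMT4-ECE2. In shSTBD1, 8 factors were higher and 11 were lower at an adjusted p under 0.05 (edgeR, Benjamini-Hochberg over all 15566 tested genes). These 19 are 28.8% of the tested factors, against 15.8% of all tested genes, of which 8.22% were higher and 7.54% lower. Translation factors are abundant, and abundant genes were called more often: of all genes with a mean of at least 100 CPM 31.3% were called, against 15 of 38 factors (39.5%), and of those with at least 300 CPM 34.6% were called, against 6 of 20 factors (30%). In each of the 19 the libraries of the groups did not overlap. This held for 30 of 66 tested factors (45.5%) and for 33.6% of all tested genes. The calls and the overlap rest on the same libraries, so the lack of overlap adds no support to a call.

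The differences were small. Among the called factors the log2 fold change ran from -0.24 (EIF4ENIF1) to 0.18 (EIF2S1), that is from -15.2% to 13.1%. The median over the tested factors was 0.015 and over all tested genes 0.0023, and the median size of the change was 0.084 for factors and 0.11 for all genes. The factors varied little between replicates, with a median coefficient of variation of 3.58% in shControl and 2.01% in shSTBD1. Replicate 1 of shControl held the highest value of the 6 libraries for 26 of the 66 factors, against 4 to 11 in each of the others.

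**Figure D1:**
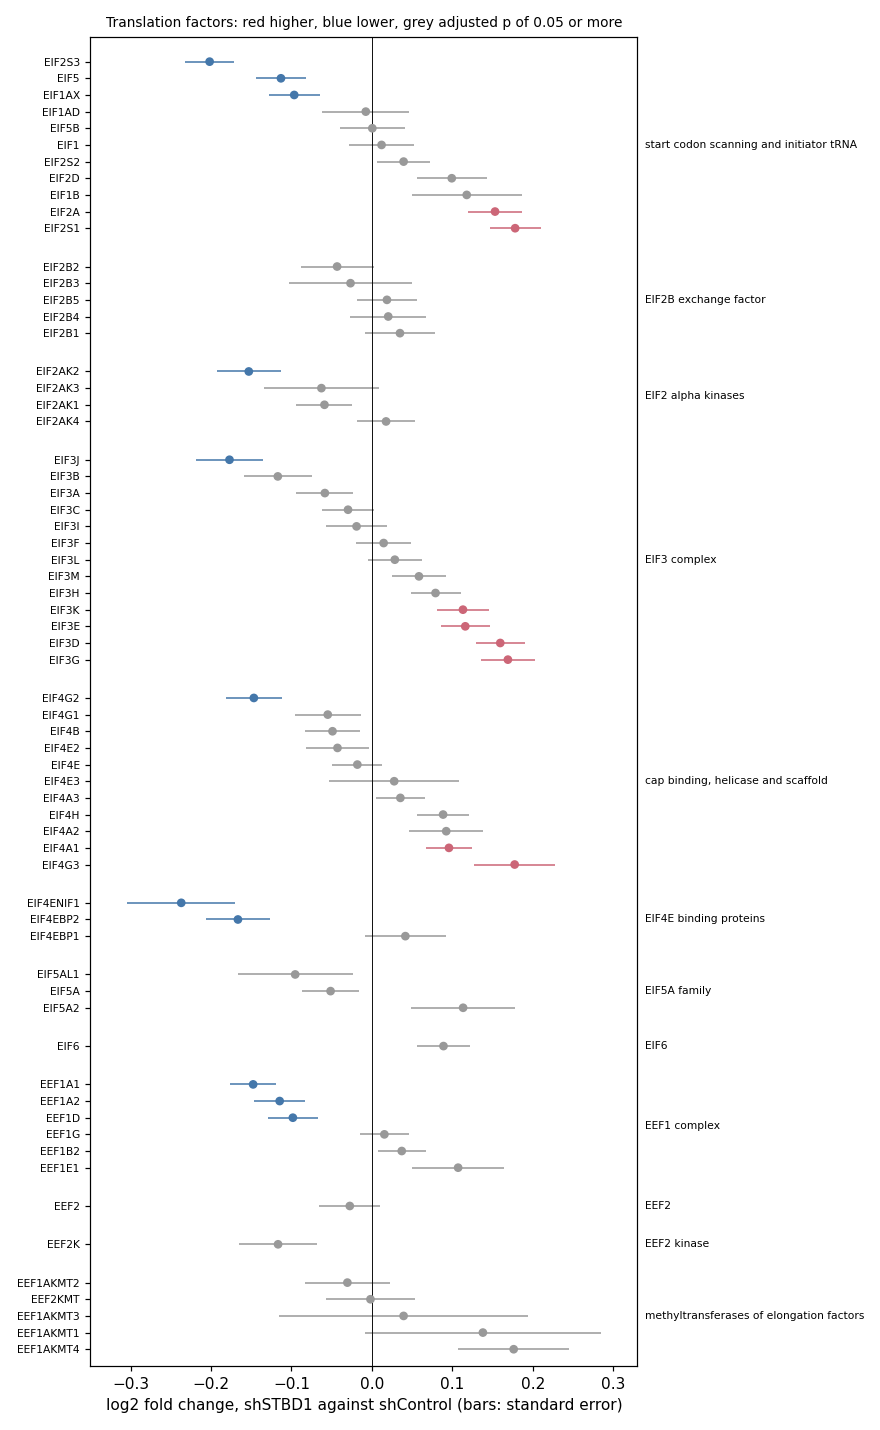
Log2 fold change of shSTBD1 against shControl (x axis) for 64 tested translation factors grouped by role, with bars of 1 standard error; EIF3CL and EIF4EBP3, whose errors exceed the axis, are not drawn. Red factors were called higher (8), blue lower (11), and grey ones did not pass an adjusted p of 0.05; most roles hold points on both sides of 0.

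The EIF2 complex, the GTPase that carries the initiator tRNA, held the factors with the lowest adjusted p-values, EIF2S3 and EIF2S1, and they changed in opposite directions. EIF2S1 (ENSG00000134001, chromosome 14 from 67360328 to 67386516, GRCh38), the alpha subunit that stress kinases phosphorylate, was at 177, 173 and 171 CPM in shControl and at 192, 198 and 199 CPM in shSTBD1. It rose by 0.18 on the log2 scale (SE 0.032, adjusted p = 0.0011). EIF2S3 (ENSG00000130741, chromosome X from 24054946 to 24078810), the gamma subunit that binds GTP and the tRNA, was at 305, 292 and 300 CPM in shControl and at 261, 262 and 257 CPM in shSTBD1. It fell by 0.20 on the log2 scale (SE 0.031, adjusted p = 2.8e-04), and every shSTBD1 library lay below every shControl library. EIF2S2, the beta subunit, was at 176, 169 and 166 CPM and at 174, 177 and 174 CPM, which overlap (log2 fold change 0.04, adjusted p = 0.46).

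EIF2S1 and EIF2S3 were the only factors called in the same direction under all 16 alternatives, with adjusted p-values of at most 0.043 and 0.040. Once the trend with gene length was removed, the log2 fold change was 0.12 for EIF2S1, its lowest over the alternatives, and -0.20 for EIF2S3. Per length of transcript, EIF2S3 stood at 0.649, 0.635 and 0.659 of the TPM of EIF2S1 in shControl and at 0.498, 0.496 and 0.51 in shSTBD1. The ratio was chosen after the values of both genes were seen, and its 3 libraries per group did not overlap (exact permutation test, two-sided, p = 0.1, which is the lowest value that 3 against 3 can give). Since EIF2S3 was lower and EIF2S1 higher in TPM without overlap, the test could have no other outcome and adds no support.

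**Figure D2:**
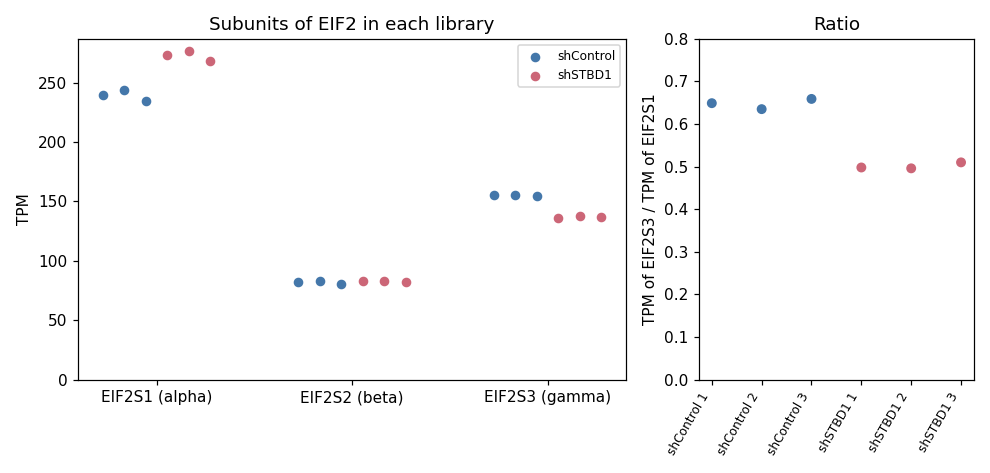
Left, TPM of the 3 subunits of EIF2 in each library (blue shControl, red shSTBD1). Right, the TPM of EIF2S3 divided by that of EIF2S1, which lay between 0.635 and 0.659 in shControl and between 0.496 and 0.51 in shSTBD1; both y axes start at 0.

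With EIF2S1 and EIF2S3, 5 of 11 tested factors of start codon scanning and initiator tRNA delivery were called (45.5%). The share was 15.8% of all tested genes and 31.3% of genes with a mean of at least 100 CPM. Among the other 8 tested factors of this role, EIF2A rose and EIF5 and EIF1AX fell. EIF1, EIF1B, EIF1AD, EIF2D and EIF5B were not called. EIF2A, a single-chain factor distinct from the EIF2 complex that can deliver initiator tRNA, was at 115, 118 and 114 CPM in shControl and at 132, 127 and 127 CPM in shSTBD1 (log2 fold change 0.15, SE 0.034, adjusted p = 0.0058). EIF5, which makes EIF2 hydrolyse its GTP at the start codon, was at 296, 297 and 291 CPM in shControl and at 268, 281 and 267 CPM in shSTBD1 (log2 fold change -0.11, SE 0.032, adjusted p = 0.022). EIF1AX, which keeps the scanning ribosome open, was at 178, 173 and 170 CPM against 164, 163 and 160 CPM (log2 fold change -0.10, SE 0.032, adjusted p = 0.049). The EIF5 call was lost without any of 4 libraries (shControl replicates 2 and 3, shSTBD1 replicates 1 and 3, adjusted p of 0.054, 0.051, 0.095 and 0.12), and that of EIF1AX without any of the 6 (0.052 to 0.18). EIF5B, the factor of subunit joining, had a log2 fold change of 0.0005 and an adjusted p of 1.0.

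EIF2B, the exchange factor that reloads EIF2 with GTP, has 5 subunits. None was called by edgeR, DESeq2 or limma on log2(TPM + 1), nor did any reach an unadjusted p under 0.05. Over all tested genes these fits called 15.8%, 10.9% and 1.88%, and 5 subunits are too few for a comparison. The log2 fold changes of the subunits ran from -0.04 (EIF2B2) to 0.03 (EIF2B1). Of the 4 kinases of the EIF2 alpha subunit, EIF2AK2 (PKR), which responds to double-stranded RNA, was lower: it was at 102, 93.3 and 99.1 CPM in shControl and at 88.2, 87.4 and 89.5 CPM in shSTBD1. Its log2 fold change was -0.15 (SE 0.040, adjusted p = 0.015), and without shControl replicate 3 or shSTBD1 replicate 1 or 2 the adjusted p was 0.053, 0.053 and 0.076. The heme-regulated EIF2AK1, the endoplasmic reticulum kinase EIF2AK3 (PERK) and the amino acid sensor EIF2AK4 (GCN2) differed by -0.06, -0.06 and 0.02 on the log2 scale (adjusted p of 0.28, 0.61 and 0.80). The direction of EIF2AK3 turned where effective length entered: with offsets for it the value was 0.19 (adjusted p = 0.33), and its level was 5.78, 6.51 and 6.77 TPM in shControl and 6.58, 7.29 and 7.65 TPM in shSTBD1.

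The EIF3 complex, which holds the small subunit and the mRNA together, had 4 of 14 members called higher and 1 called lower. These are 35.7% of its members, against 15.8% of all tested genes and 31.3% of genes with a mean of at least 100 CPM. EIF3G (ENSG00000130811), an RNA-binding subunit of the part that acts in scanning, was at 134, 127 and 132 CPM in shControl and at 148, 148 and 146 CPM in shSTBD1 (log2 fold change 0.17, SE 0.033, adjusted p = 0.0024). EIF3D (ENSG00000100353), a subunit that can bind the cap of selected mRNAs, was at 259, 256 and 265 CPM in shControl and at 288, 292 and 291 CPM in shSTBD1 (log2 fold change 0.16, SE 0.030, adjusted p = 0.0018). Both kept their call with any 1 library left out. With offsets for effective length edgeR called neither EIF3G nor EIF3D (adjusted p of 0.13 and 0.066). Limma on log2(TPM + 1) did not call them either (0.12 and 0.081).

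EIF3E was at 471, 482 and 492 CPM in shControl and at 530, 523 and 513 CPM in shSTBD1 (log2 fold change 0.12, SE 0.031, adjusted p = 0.016). EIF3K, one of the smallest subunits, was at 122, 122 and 121 CPM against 131, 129 and 135 CPM (log2 fold change 0.11, SE 0.033, adjusted p = 0.027). EIF3J, a loosely attached subunit at the decoding site, was the lower one, at 83.9, 79.1 and 77.4 CPM in shControl and 70.7, 73.1 and 68.9 CPM in shSTBD1 (log2 fold change -0.18, SE 0.042, adjusted p = 0.0087). EIF3E was no longer called without shSTBD1 replicate 1 or 2 (adjusted p of 0.091 and 0.076), EIF3J without shSTBD1 replicate 3 (0.057), and EIF3K without any of 5 libraries (0.056 to 0.14), all but shControl replicate 1. The value of EIF3K also depended on the treatment of length: it was 0.035 (adjusted p = 0.54) once the trend with gene length was removed and 0.21 (adjusted p = 0.036) with offsets for effective length, which itself differed by -0.10 on the log2 scale (unadjusted p = 0.033), and DESeq2 did not call it (adjusted p = 0.071).

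The remaining 9 EIF3 genes did not pass. The large scaffold subunits EIF3A and EIF3B differed by -0.06 and -0.12 on the log2 scale (adjusted p of 0.29 and 0.069). EIF3B was called lower by DESeq2 (adjusted p = 0.044), with no filter on low counts (0.0053) and with a term for the replicate number (0.038). It was also called lower without shControl replicate 2 (-0.16, adjusted p = 0.015), while without shControl replicate 1 its log2 fold change was -0.06. EIF3CL, a near-identical copy of EIF3C, ran from 0.479 to 5.58 CPM over the libraries with both groups overlapping, and its posterior SD was 83.2% of its count, so how the reads were divided between the copies is uncertain.

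Of the 11 tested genes of cap binding, unwinding and scaffolding, EIF4G3 and EIF4A1 rose and EIF4G2 fell. The share called was 27.3%, against 15.8% of all tested genes and 31.3% of genes with a mean of at least 100 CPM. EIF4G3 (ENSG00000075151), a scaffold related to EIF4G1, was at 61.8, 61.8 and 68.5 CPM in shControl and at 68.5, 71.4 and 76.8 CPM in shSTBD1, so that the highest shControl library and the lowest shSTBD1 library all but touched (log2 fold change 0.18, SE 0.051, adjusted p = 0.025). EIF4G2 (ENSG00000110321, also DAP5), a scaffold that lacks the EIF4E-binding region, was at 1194, 1096 and 1117 CPM in shControl and at 1053, 1018 and 1007 CPM in shSTBD1 (log2 fold change -0.15, SE 0.035, adjusted p = 0.0091). EIF4A1, the main helicase, was at 1065, 1072 and 1080 CPM against 1146, 1157 and 1135 CPM (log2 fold change 0.10, SE 0.029, adjusted p = 0.031).

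EIF4G3 was not called without shControl replicate 2 or shSTBD1 replicate 2 or 3 (adjusted p of 0.087, 0.073 and 0.15), EIF4G2 not without shSTBD1 replicate 2 or 3 (0.062 and 0.063), and EIF4A1 in none of the fits without a library other than shControl replicate 1 (0.059 to 0.14). EIF4E, the cap-binding protein itself, was at 139, 140 and 141 CPM in shControl and at 139, 138 and 138 CPM in shSTBD1 (log2 fold change -0.02, SE 0.031, adjusted p = 0.75). EIF4G1, the main scaffold, was at 1112, 978 and 985 CPM against 980, 996 and 984 CPM (log2 fold change -0.05, adjusted p = 0.41), and without shControl replicate 1 the value was 0.0059.

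In TPM the scaffolds differed widely in level: EIF4G2 was 29.7, 25.2 and 24 times as high as EIF4G3 in shControl and 21.2, 20.7 and 18.6 times as high in shSTBD1 (exact permutation test, two-sided, p = 0.1, again the lowest possible, for a ratio chosen after the values were seen). Here too the outcome was fixed, since EIF4G2 was lower and EIF4G3 higher in TPM without overlap.

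Proteins that bind EIF4E were represented by 4 genes, of which 2 were lower (50%, against 15.8% of all tested genes called in either direction). EIF4ENIF1 (4E-T), which carries EIF4E to the nucleus and to processing bodies, was at 33.4, 34.6 and 37.7 CPM in shControl and at 31.0, 31.6 and 26.9 CPM in shSTBD1. Its log2 fold change of -0.24 (SE 0.067, adjusted p = 0.024) was the largest of any called factor and also had the largest error among them. It was not called without shControl replicate 3 (-0.19, adjusted p = 0.11) or shSTBD1 replicate 3 (-0.17, adjusted p = 0.13). EIF4EBP2, a repressor of cap-dependent initiation released from EIF4E when mTOR is active, was at 132, 123 and 122 CPM in shControl and at 117, 111 and 108 CPM in shSTBD1 (log2 fold change -0.17, SE 0.039, adjusted p = 0.0085), and without shSTBD1 replicate 2 or 3 its adjusted p was 0.052 and 0.062. Its relative EIF4EBP1 was at 67.4, 74.4 and 79.8 CPM against 76.6, 76.3 and 75.0 CPM (log2 fold change 0.04, adjusted p = 0.63), with overlapping groups. EIF4EBP3 lay under 1 CPM in every library.

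EIF5A, whose hypusine-bearing protein helps ribosomes through difficult peptide bonds, was at 926, 844 and 846 CPM against 839, 846 and 840 CPM (log2 fold change -0.05, adjusted p = 0.37, and -0.008 without shControl replicate 1). None of the 3 genes of its family was called by edgeR, DESeq2 or limma, and none had an unadjusted p under 0.05. Of all tested genes edgeR called 15.8%, so 3 genes are too few for a comparison. EIF6, which keeps the large ribosomal subunit from joining early, was at 141, 140 and 141 CPM in shControl and at 146, 155 and 147 CPM in shSTBD1. The groups did not overlap, but it missed the threshold (log2 fold change 0.09, SE 0.033, adjusted p = 0.080).

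Elongation was marked by EEF1A1 (ENSG00000156508, chromosome 6 from 73489308 to 73525587), the carrier of aminoacyl-tRNA and the most abundant of the factors. It was at 11365, 10837 and 11031 CPM in shControl and at 10123, 9959 and 9917 CPM in shSTBD1, a log2 fold change of -0.15 (SE 0.029, adjusted p = 0.0022) with no overlap. RSEM's posterior SD was 0.0053% of its count. EEF1A2, the second gene for the same activity, known for its expression in muscle and neurons, was also lower, at 445, 422 and 433 CPM against 396, 410 and 394 CPM (log2 fold change -0.11, SE 0.032, adjusted p = 0.022).

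EEF1D, a subunit of the exchange factor that reloads EEF1A, was at 481, 460 and 470 CPM in shControl and at 432, 443 and 443 CPM in shSTBD1 (log2 fold change -0.10, SE 0.031, adjusted p = 0.039). The other exchange subunits EEF1B2 and EEF1G had log2 fold changes of 0.04 and 0.02 (adjusted p of 0.44 and 0.79). EEF1A2 was not called without shControl replicate 3 or shSTBD1 replicate 1 or 3 (adjusted p of 0.068, 0.089 and 0.12), and EEF1D without any of 4 libraries (shControl replicate 3 and every shSTBD1 replicate, 0.10 to 0.14). EEF2, the translocase, was at 3901, 3474 and 3539 CPM against 3588, 3583 and 3537 CPM, so that replicate 1 of shControl stood above the other 5 libraries (log2 fold change -0.03, adjusted p = 0.68, and 0.02 without that library). Its kinase EEF2K was at 66.1, 58.1 and 59.9 CPM against 56.7, 55.9 and 57.1 CPM (log2 fold change -0.12, SE 0.049, adjusted p = 0.12). Of 5 methyltransferases that modify lysines of EEF1A or EEF2, none was called by edgeR, DESeq2 or limma, and 1 had an unadjusted p under 0.05. Since edgeR called 15.8% of all tested genes, 5 are too few for a comparison.

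**Figure D3:**
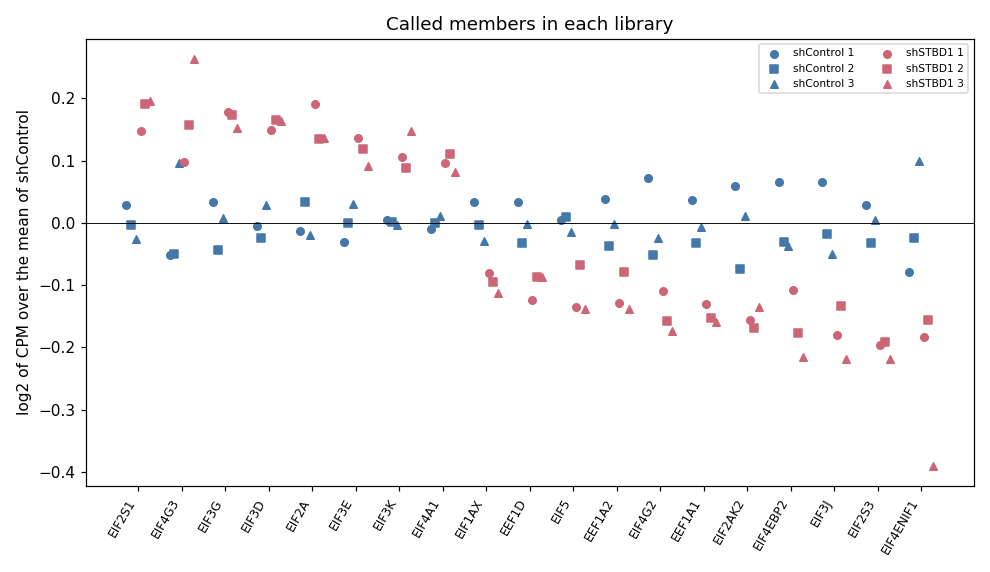
Level of the 19 called factors in each library, as the log2 of its CPM over the mean CPM of shControl (y axis), with the symbol giving the replicate and the colour the group. In each factor the 3 shSTBD1 values lie on one side of the 3 shControl values, most narrowly for EIF4G3; shSTBD1 replicate 3 is far below its group in EIF4ENIF1.

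Compared per transcript length, the factors differed widely in level. Over all libraries 4 factors exceeded a mean of 1000 TPM (EEF1A1, EEF1G, EEF2 and EIF4A1), 30 lay between 100 and 1000, 25 between 10 and 100, 6 between 1 and 10, and 6 at 1 or less. After EEF1A1, at 7221 TPM on average, came EEF1G, at 1511, 1493 and 1530 TPM in shControl and 1530, 1517 and 1492 TPM in shSTBD1, and EEF2, at 1569, 1515 and 1467 TPM against 1472, 1438 and 1526 TPM, which overlap each other in level. Together the 71 factors took 23142, 23242 and 23151 TPM in shControl and 22553, 22130 and 22060 TPM in shSTBD1. Of the difference of -930.6 TPM between the means, EEF1A1 made up -871.0. It went from 7679, 7643 and 7647 TPM to 6896, 6723 and 6737 TPM. Limma did not call EEF1A1 on log2(TPM + 1) (adjusted p = 0.10) or on log2(TPM + 0.1) (0.091). Without EEF1A1 the other factors summed to 15522 ± 70 TPM (SD, n = 3) in shControl and 15462 ± 174 TPM (SD, n = 3) in shSTBD1, a difference smaller than the spread within shSTBD1.

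**Figure D4:**
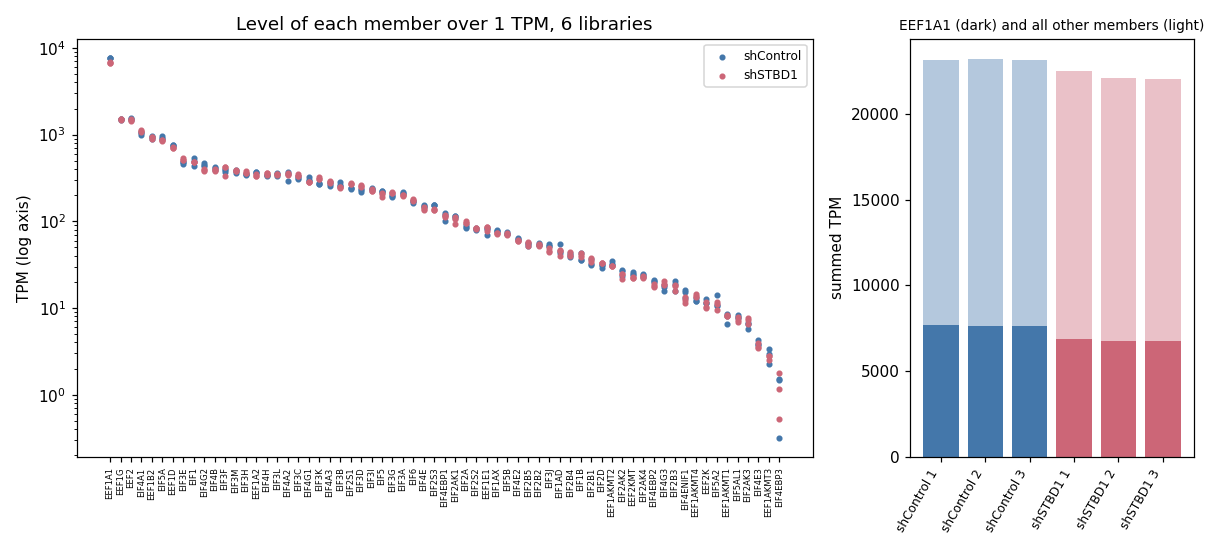
Left, TPM of each factor with a mean over 1 TPM on a log axis, 6 points a gene (blue shControl, red shSTBD1). Right, summed TPM of the 71 factors in each library, with EEF1A1 dark and all others light; the dark part falls from 7643 to 7679 TPM in shControl to 6723 to 6896 TPM in shSTBD1.

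Many mRNAs of the translation apparatus carry a 5′ terminal oligopyrimidine tract, a C at the cap followed by a run of pyrimidines, through which mTOR and LARP1 control their translation. At the RefSeq start site (GRCh38.p14), a C followed by at least 4 pyrimidines stood in 11 of 52 tested factors with a RefSeq promoter (21.2%), in 44 of 68 ribosomal protein genes (64.7%) and in 567 of 10514 tested protein-coding genes (5.39%). The factors with such a start are shown here, since they include EEF1A1 and EIF2S3, which fell, and EIF3D, EIF2A and EIF3K, which rose. Each line gives 10 bases before the start and 15 from it on the strand of the gene, and the capitals mark the pyrimidine run, whose first base is the start.
EEF1A1, chromosome 6, 73521018 to 73521042, minus strand: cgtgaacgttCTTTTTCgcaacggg
EIF2S3, chromosome X, 24054946 to 24054970, plus strand: gatttccttcCTCTTTTggcaacat
EIF3D, chromosome 22, 36529152 to 36529176, minus strand: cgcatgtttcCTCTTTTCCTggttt
EIF2A, chromosome 3, 150546777 to 150546801, plus strand: cgagcggtttCTCTTTCCgggacaa
EIF3K, chromosome 19, 38619178 to 38619202, plus strand: tttccaccacCTCTTCCTgttcccg
EEF2, chromosome 19, 3985449 to 3985473, minus strand: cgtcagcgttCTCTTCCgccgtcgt

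The other 5 were EIF2D, EIF3F, EIF3M, EIF4A2 and EIF4B, which with EEF2 did not pass the test. Of the 11 factors with the pyrimidine start 3 were called higher and 2 lower, and of the 41 without it 3 were called higher and 7 lower. Of all tested genes 8.22% were higher and 7.54% lower. Calls among all genes with such a start were not counted, and these few factors do not tell whether the tract matters. In a list of 9 factors known for such mRNAs from other work, EIF3E was higher, EEF1A1 and EEF1D were lower, and the median log2 fold change was 0.015. The share called was 33.3%, against 15.8% of all tested genes and 31.3% of genes with a mean of at least 100 CPM. Of 83 tested ribosomal protein genes, the best known carriers of the tract, 24 were called higher (28.9%, against 8.22% of all genes) and 0 lower, with a median of 0.068. These genes are short, with a median of 685 bases, and all tested genes of up to 1000 bases had a median of 0.077, with 12.8% called higher and 1.31% lower. A match is a property of the annotated start, and the start that HCT116 cells use was not measured.

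A hairpin can also act on other mRNAs through short matches to their 3′ UTR. The 7-base site that pairs with the start of the shSTBD1 hairpin's guide strand, GATTTCT, occurred in the 3′ UTR of 12 of 66 tested factors (18.2%) and of 18.5% of 13036 tested genes. Of these 12 factors none was called lower and EIF2S1 was called higher, while 8.22% of all tested genes were called higher and 7.54% lower. At such shares 12 factors are too few for a comparison, and calls among all genes with the site were not counted. Whether the hairpin acts on these factors was not tested. The site of the non-target hairpin, TGTCACG, occurred in 1 factor, EEF2K, which was not called (1.52%, against 3.04% of genes). The sites in EIF2S1, the called factor, and EEF2, one of the most abundant, are given with 8 bases on either side and the match in capitals (GRCh38).
EIF2S1, chromosome 14, match at 67386276 to 67386282, plus strand: tagcttgtGATTTCTcattattc
EEF2, chromosome 19, match at 3976143 to 3976149, minus strand: gggtagatGATTTCTagcaggca

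Genes of translation whose symbols the rule did not take were drawn from a list of 41 partners, of which 40 were tested. Called shares were 15.8% of all tested genes, 23.9% of those with a mean of at least 20 CPM and 31.3% with at least 100 CPM. Of the 40 partners 7 were higher and 5 lower (30%). The higher ones included PAIP1, which links poly(A)-binding protein to EIF4A, from 51.7, 51.2 and 49.9 CPM to 72.5, 69.6 and 73.5 CPM (log2 fold change 0.50, SE 0.042, adjusted p = 6.3e-07). PDCD4, an inhibitor of EIF4A, went from 20.7, 21.8 and 19.9 CPM to 26.7, 28.5 and 29.2 CPM (log2 fold change 0.43, SE 0.062, adjusted p = 1.7e-04). PPP1R15B, which directs a phosphatase to the EIF2 alpha subunit, went from 121, 122 and 123 CPM to 146, 142 and 149 CPM (log2 fold change 0.25, SE 0.034, adjusted p = 7.0e-05). CTIF, LARP4, MKNK2 and HBS1L were the other higher ones.

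Lower partners were DENR, LARP1, ABCF2, SECISBP2 and PABPC4. DENR, a factor of ribosome recycling and reinitiation, went from 92.4, 86.0 and 93.7 CPM to 75.9, 76.7 and 78.1 CPM (log2 fold change -0.24, SE 0.040, adjusted p = 7.7e-04). LARP1, the protein that binds the oligopyrimidine tract, went from 280, 266 and 264 CPM to 243, 240 and 235 CPM (log2 fold change -0.17, SE 0.033, adjusted p = 0.0021). Among 11 tested factors of mitochondrial translation none was called by edgeR, DESeq2 or limma on log2(TPM + 1), and 1 had an unadjusted p under 0.05. Over all tested genes these fits called 15.8%, 10.9% and 1.88%, and 11 factors are too few for a comparison.

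The direction of change moved with transcript length over all genes. Genes of up to 1000 bases had a median log2 fold change of 0.077, those of 1000 to 2000 bases 0.027, those of 2000 to 3000 bases -0.005, those of 3000 to 4000 bases -0.027 and longer ones -0.038. The factors showed medians of 0.083, 0.020, -0.03, -0.045 and -0.057 in the same classes, which hold 8, 29, 13, 8 and 8 of them. Of the 8 factors called higher 7 had at most 2000 bases, all but EIF4G3, and their median was 1436 bases. The 11 called lower had a median of 2449 bases, and 4 of them, EEF1A1, EEF1A2, EEF1D and EIF5, had at most 2000 bases. Between 1000 and 2000 bases 9% of all genes were called higher and 3.94% lower, against 6 and 3 of 29 factors. With the trend of each library with gene length removed by offsets, 5 factors were higher and 10 lower. The calls that ended were those of EIF3E (log2 fold change 0.08, adjusted p = 0.066), EIF3K (0.035, adjusted p = 0.54), EIF4A1 (0.06, adjusted p = 0.16) and EIF1AX (-0.09, adjusted p = 0.050), and the other 15 were kept.

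RSEM's effective length of a gene shifts when the mix of its isoforms shifts. It could be tested for 60 factors, and 0 of them and 0% of the 13130 genes tested were called (limma, Benjamini-Hochberg). At an unadjusted p under 0.05 there were 4 factors, by effective length as well as by the length column, and 744 genes (5.67%). The factor with the largest difference was EIF2AK3, at -0.26 on the log2 scale (adjusted p = 0.57). The median size of the difference was 0.021 for factors and 0.044 for all genes.

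Of the called factors 6, namely EIF2S1, EIF2S3, EIF2A, EIF3D, EIF3G and EEF1A1, kept their call when any 1 library was left out. Over all tested genes the share called was 15.8% with every library and 8.9% to 9.84% with a shSTBD1 library left out. With a shControl library left out it was 11.5% to 16.2%. Offsets for effective length left 5 of the 19 calls (EIF2S1, EIF3K, EIF2S3, EIF4G2 and EEF1A1) and 3.28% of all genes, and limma on log2(TPM + 1) left 3 (EIF2S1, EIF2S3 and EIF3K) and 1.88% of all genes. EIF3K, kept in both, was not called by DESeq2 or with the trend in gene length removed. No alternative reversed the direction of a called factor.

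**Figure D5:**
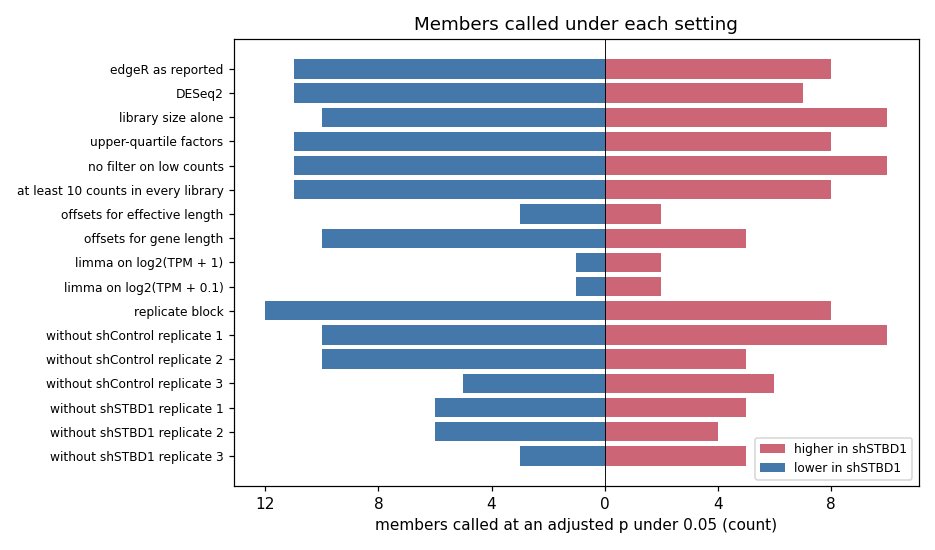
Number of translation factors called higher (red, to the right) and lower (blue, to the left) in shSTBD1 at an adjusted p under 0.05 under each setting (y axis). edgeR as reported gives 8 and 11; tests that use effective length or TPM give at most 2 and 3.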

How the data were processed

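RNA-seq libraries of HCT116 cells were compared between 3 shControl and 3 shSTBD1 replicates, grouped by their labels. The authors removed low-quality reads, aligned the rest to Hg38 (Ensembl release 93) with STAR 2.7.1a and ran RSEM 1.3.1, per the labels and the methods. The deposited tables give for each gene the expected count without normalization, the TPM, to which the authors gave an equal total per library, the effective length and a posterior SD. Whether counting used strand is not given in the sources used here. Symbols and positions were taken from GENCODE 44 (57754 of 58395 genes matched), start sites from RefSeq.

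Expected counts were rounded, filtered by filterByExpr (15566 genes left), scaled by TMM and tested by the quasi-likelihood F-test of edgeR 4.0.16 in R 4.3.3, with Benjamini-Hochberg adjustment over all tested genes. Effective lengths were tested with limma 3.58.1 on the log2 scale. Alternatives included DESeq2 1.42.0, offsets for effective length, offsets for the trend of each library with gene length (loess), and limma on log2(TPM + 1) or log2(TPM + 0.1), whose fold changes are on that scale. Scripts were tested on simulated data. The p-values measure the spread between replicates whose independence is given only as biological.

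Genes named with values are STBD1, the factors called, 9 core factors fixed by name and the most abundant 3. Other genes, the ratios of genes and the classes by level and length were chosen after values were seen. The members and lists were chosen with earlier results of these data known.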

Additional observations from a re-analysis of the deposited data

How the results depend on the processing

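The 19 calls were weaker in 96 of 304 alternatives and reversed in 0. Counts of factors called higher moved from 8 to 2 with offsets for effective length, to 5 with offsets for gene length and to 2 with limma on log2(TPM + 1) or log2(TPM + 0.1), and counts called lower from 11 to 3, with effective length, and to 1 with either limma fit. With a library left out they ran from 4 to 10 higher and from 3 to 10 lower, and the fewest lower calls came without shSTBD1 replicate 3. Calls over all tested genes moved too, from 15.8% to 16.2%, 14% and 11.5% without shControl replicate 1, 2 and 3. Without shSTBD1 replicate 1, 2 and 3 they were 9.84%, 8.9% and 9.46%. The cause was not tested. The median log2 fold change of the factors, 0.015, was -0.0084 with effective length, -0.016 with gene length, -0.017 in both limma fits and -0.0038 (without shSTBD1 replicate 2) to 0.024 with a library left out. Partners called higher were 3 with effective length and 0 in both limma fits, against 7, and partners called lower 1 in these 3 fits and 2 to 5 with a library left out, against 5.

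Of the 47 tested factors that were not called, 24 changed sign in some alternative, 15 of them in a setting with length or TPM; EIF5A2, at 0.11, was -0.12 and EIF3C, at -0.03, was 0.087 with offsets for effective length. Among the core factors the changes were EIF4EBP1 to -0.016 and EEF1G to -0.016 with offsets for gene length, EEF2 to 0.024, EIF4G1 to 0.0059 and EIF4EBP1 to -0.021 without shControl replicate 1, and EEF1G to -0.0046 without shControl replicate 2. With a library left out EEF2 ran from -0.059 to 0.024, EIF4EBP1 from -0.021 to 0.098, EIF4G1 from -0.088 to 0.0059 and EEF1G from -0.0046 to 0.036. The deviations of same-numbered libraries correlated at 0.071, 0.068 and -0.0084, and those of differently numbered libraries at -0.074 to 0.010. These values are small and do not settle whether the replicate numbers pair the libraries. A fit with the replicate block called 8 factors higher and 12 lower, the twelfth being EIF3B, and all 19 calls were kept.

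Depth limits the low factors: EIF3CL and EIF4EBP3 had standard errors of 0.64 and 0.56 on the log2 scale.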
